A study of Homo sapiens with 3 samples.

Results

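The genes described here are the 10 genes of the cytosolic HSP70 and HSP90 chaperone system named HSPA8, HSPA1A, HSPA1B, HSPH1, DNAJA1, DNAJB1, ST13, STIP1, HSP90AA1 and HSP90AB1, taken by symbol from the 58735 genes of the deposited table. They were chosen by their FPKM values in these same libraries, shUSP16 against shControl, so those differences are given as a description, with no test. RNA was sequenced from cells of HGC-27, a line established from a human gastric cancer, kept in medium with fetal bovine serum. There was 1 library of cells with a control hairpin (shControl, genotype WT, column named Scramble) and there were 2 libraries of cells with a hairpin against the deubiquitinase USP16 (genotype shUSP16, named shUSP16-1 and shUSP16-2). Nothing in the labels tells if 1 and 2 stand for 2 hairpins or for repeats of 1, nor if separate cultures were used. In such bulk RNA, fewer cells with a transcript and less of it per cell cannot be told apart. For all 3 libraries the protocol text also lists dexamethasone, isobutylmethylxanthine and insulin, and whether these cells received them is unclear.

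HSP70 proteins bind unfolded stretches of client proteins and release them in cycles of ATP binding and hydrolysis. J-domain proteins deliver clients and start hydrolysis, and exchange factors such as HSPH1 release the ADP. The adapter STIP1 (HOP) passes clients from HSP70 to HSP90, which finishes the folding of kinases, steroid receptors and other regulators, and ST13 (HIP) stabilises HSP70 with ADP bound. Transcription of many of these genes is driven by heat shock factor 1, which binds as a trimer to arrays of inverted 5-base units called heat shock elements; HSPA8 and HSP90AB1 are the forms made at a high level without stress, and HSPA1A and HSPA1B are the forms known for strong induction by heat.

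Promoter sequences from RefSeq (GRCh38.p14, 250 bases before to 50 after each annotated start) were matched by symbol for 9 of the 10 genes, all except ST13, in 15 windows. They are shown because many of these genes are targets of heat shock factors. Whether these sequences bear on the levels below was not tested. Letters searched for on both strands were GAANNTTC and TTCNNGAA, each its own reverse complement and called a pair here, and GAANNTTCNNGAA and TTCNNGAANNTTC, which are reverse complements of each other, contain overlapping pairs and are called a triplet. Capitals mark all matches to a pair, and a run of 13 capitals is a triplet. Each sequence is written 5′ to 3′ on the strand of its gene.
HSPA8 (chr11:123062137-123062386, minus): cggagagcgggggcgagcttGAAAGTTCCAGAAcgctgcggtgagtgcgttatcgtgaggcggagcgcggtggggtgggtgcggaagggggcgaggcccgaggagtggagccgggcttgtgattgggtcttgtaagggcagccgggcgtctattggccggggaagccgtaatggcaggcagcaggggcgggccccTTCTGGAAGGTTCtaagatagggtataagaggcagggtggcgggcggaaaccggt
HSP90AA1 (chr14:102087045-102087194, minus): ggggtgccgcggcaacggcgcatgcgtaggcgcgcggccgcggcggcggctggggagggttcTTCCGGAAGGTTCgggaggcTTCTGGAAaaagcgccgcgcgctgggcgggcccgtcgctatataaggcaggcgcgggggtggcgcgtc
HSP90AB1 (chr6:44247753-44247882, plus): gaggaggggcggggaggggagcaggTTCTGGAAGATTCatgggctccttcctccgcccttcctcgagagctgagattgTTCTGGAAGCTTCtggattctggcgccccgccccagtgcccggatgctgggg
DNAJA1 (chr9:33025268-33025297, plus): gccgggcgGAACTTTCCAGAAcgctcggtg
HSPA1A (chr6:31815373-31815542, plus): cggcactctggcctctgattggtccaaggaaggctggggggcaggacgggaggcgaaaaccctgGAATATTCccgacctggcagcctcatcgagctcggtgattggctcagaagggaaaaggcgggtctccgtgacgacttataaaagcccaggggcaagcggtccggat
HSPA1B (chr6:31827569-31827737, plus): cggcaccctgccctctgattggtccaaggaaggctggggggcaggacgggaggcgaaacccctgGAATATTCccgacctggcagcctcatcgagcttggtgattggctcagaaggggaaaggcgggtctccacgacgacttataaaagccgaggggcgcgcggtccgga
DNAJB1 (chr19:14518398-14518517, minus): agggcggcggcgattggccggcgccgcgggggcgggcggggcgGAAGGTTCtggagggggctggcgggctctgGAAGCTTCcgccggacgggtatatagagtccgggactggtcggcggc
STIP1 (chr11:64186171-64186200, plus): agcttctagtaggTTCCAGAAggcggcgcg

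A triplet was found in 4 of the 9 genes, HSPA8, DNAJA1, HSP90AA1 and HSP90AB1, and in 4 of their 15 windows. Of all 35116 promoter windows, 0.490% held a triplet. HSPA8 held a triplet from base -230 to -218 and another from -55 to -43, counted from the annotated start. HSP90AB1 also held 2, in the window of the most downstream of its 3 annotated starts, and DNAJA1 held its triplet just after the start, at bases 4 to 16. A pair was found in 8 of the 9 genes, all but HSPH1, and in 9 of their 15 windows, against 13.5% of all windows. HSPA1A and HSPA1B each held 1 pair and no triplet, and their windows were identical at 277 of 301 aligned positions (92.0%). DNAJB1 held 2 pairs in the window of the second of its 3 starts, which is the one printed, and 1 pair at bases 2 to 9 after the third. STIP1 held 1 pair after its second start. Only exact letters were counted, so an array with a changed base in 1 of its units, in these or other genes, would be missed. These are matches of letters only, and binding was not measured.

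**Figure D1:**
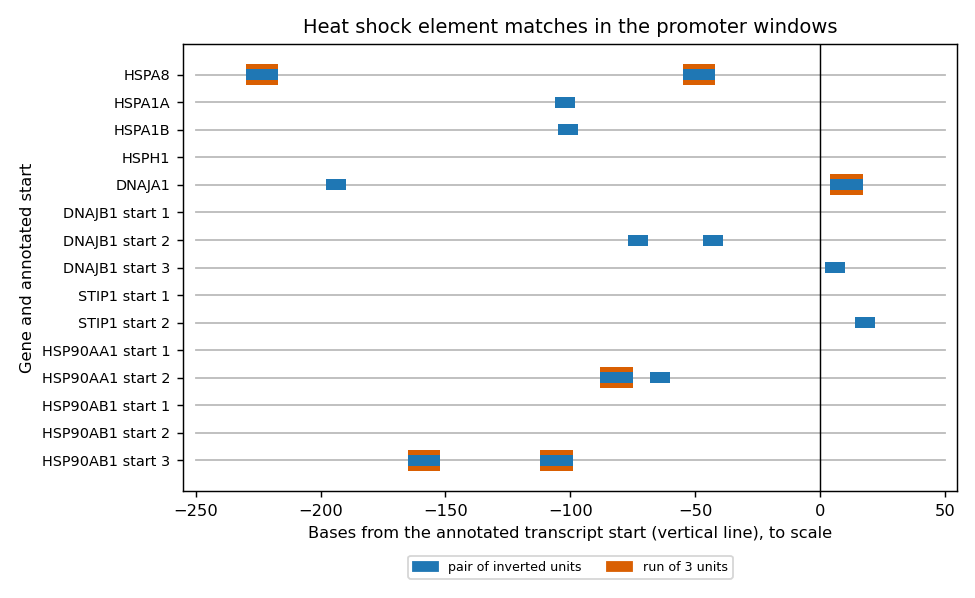
Matches to heat shock element letters in the 15 promoter windows of 9 genes, with bases from the annotated start on the x axis and 1 row for each annotated start. Triplets (orange behind blue) appear in 4 rows, 1 each for HSPA8, DNAJA1, HSP90AA1 and HSP90AB1; HSPA1A and HSPA1B have a single pair at nearly the same place.

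Each direction below rests on the labels of the libraries. USP16 itself had 6.28 FPKM (fragments per kilobase scaled to library size) in shControl, and of those labelled shUSP16 library 1 had 4.29 and library 2 had 5.98. That is 0.683 times shControl (95% interval of counting error 0.621 to 0.749) and 0.952 times (0.875 to 1.04), the second not apart from 1. With equal sums of reads USP16 stood at 0.639 (0.582 to 0.702) and 0.876 (0.805 to 0.953), both below 1. Recovered reads summed to between 29530581 and 31187845 per library. The deposited scaling places shControl lower, relative to the others, than equal sums of reads would, so ratios are given with both where it matters. Markers did not show an epithelial or gastric profile: 0 of 5 epithelial markers (KRT8, KRT18, KRT19, EPCAM, CDH1) and 1 of 6 gastric markers (MUC1) reached a mean of 1 FPKM, and KRT19, MUC5AC, TFF1 and TFF2 were listed at 0 in all libraries. Of 4 mesenchymal markers 2 reached it, VIM and ZEB1, with sums over the list of 164 to 189 FPKM. All 3 fibroblast markers (COL1A1, COL3A1, DCN) reached it, with sums of 253 to 338 FPKM and the highest in shUSP16-2. The leukocyte, endothelial and adipocyte markers were all below it, each list summing to at most 0.252 FPKM, with PTPRC, CD3E, PECAM1 and ADIPOQ at 0. The part of these markers in the differences below was not tested. The libraries are therefore called by their labels only.

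All 10 genes passed the filter of a mean of at least 1 FPKM, which 13852 genes passed. Of the 10, 9 were above shControl in both libraries labelled shUSP16 and 1, HSPA1A, was below it in both. Of all genes tested, 44.9% were above shControl in both and 32.4% below in both, and of the 4413 genes averaging 10 FPKM or more 65.4% were above in both. The median difference from shControl in log2(FPKM + 1) was 0.44 over the 10 genes, 0.042 over all genes tested and 0.15 over genes averaging 10 FPKM or more. At least 25% above shControl in both were 6 of the 10 (HSPA8, HSPH1, ST13, STIP1, HSP90AA1 and HSP90AB1), where the share was 9.54% of all genes tested and 13.3% of those reaching 10 FPKM. At least 1.5 times in both were HSPA8 and ST13, where the shares were 2.04% and 1.45%. With equal sums of reads 8 of the 10 were above in both, as were 31.3% of all genes tested, and 1, HSPA8, was at least 1.5 times shControl, as were 1.23%. With the deposited values 0 of the 10 reached 2 times in both, where the share was 0.585%. These counts come from the contrast on which the genes were chosen, so nothing is read from them. Together the 10 genes took 0.509% of the shControl reads, 0.658% of those of shUSP16-1 and 0.712% of those of shUSP16-2, shares that do not depend on the scaling of the FPKM.

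**Figure D2:**
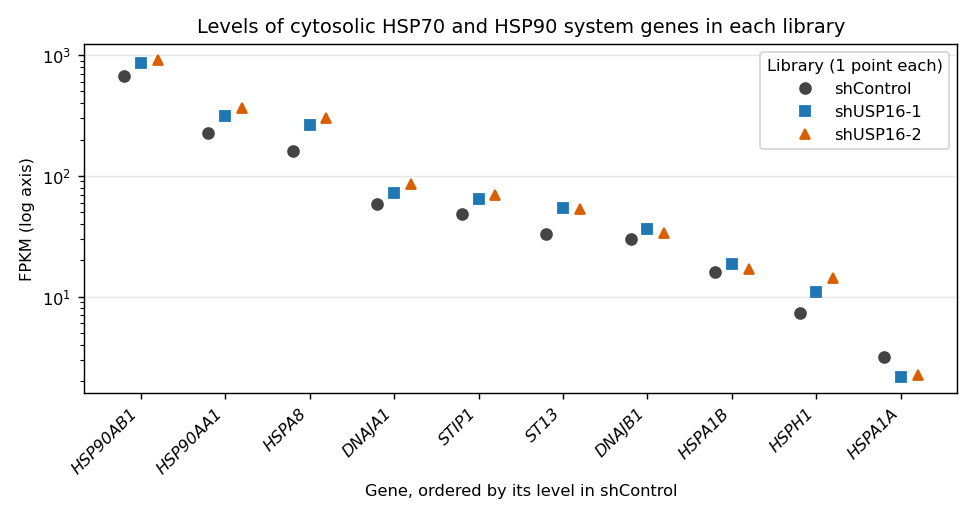
FPKM of the 10 genes (log axis) in shControl (circles), shUSP16-1 (squares) and shUSP16-2 (triangles), 1 point per library. HSPA8 goes from 159 in shControl to 264 and 303, and HSPA1A is the single gene whose shControl point is the highest.

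HSPA8 (ENSG00000109971, chromosome 11, 123057489 to 123063230, minus strand, GRCh38) is the constitutive cytosolic HSP70 also known as HSC70. Averaged over both libraries labelled shUSP16, it had the largest difference of the 10 in log2(FPKM + 1). It was at 159 FPKM in shControl (25168 reads), 264 in shUSP16-1 (38237 reads) and 303 in shUSP16-2 (45503 reads), or 283 ± 27.5 (SD, n = 2) in shUSP16. Relative to shControl, shUSP16-1 stood at 1.66 (95% interval of the exact binomial, 1.63 to 1.68). For shUSP16-2 it was 1.90 (1.87 to 1.93); these and later intervals cover counting error only. With equal sums of reads these ratios were 1.55 and 1.75. Both libraries labelled shUSP16 lay above shControl with no overlap, and they also differed from each other beyond counting error, by a ratio of 1.15 (1.13 to 1.16). Among the 4413 genes averaging 10 FPKM or more, 27 had a higher ratio in shUSP16-1 and 22 in shUSP16-2. The gene for the snoRNA SNORD14E lies within HSPA8 on the same strand and was listed with 63, 30 and 31 reads in shControl, shUSP16-1 and shUSP16-2.

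The inducible HSP70 genes HSPA1A and HSPA1B did not follow HSPA8. HSPA1A (ENSG00000204389, chromosome 6, 31815464 to 31817946, plus strand) measured 3.17 FPKM in shControl, 2.14 in shUSP16-1 and 2.23 in shUSP16-2, from 256, 159 and 172 reads. Its ratio to shControl was 0.677 (0.552 to 0.828) and 0.706 (0.578 to 0.859), so shControl was the highest library beyond counting error. HSPA1B (ENSG00000204388, chromosome 6, 31827735 to 31830255, plus strand) measured 16.0 FPKM in shControl, 18.6 in shUSP16-1 and 16.8 in shUSP16-2, from 1311, 1402 and 1315 reads. Its ratio was 1.17 (1.08 to 1.26) and 1.05 (0.975 to 1.14), so shUSP16-2 did not differ from shControl beyond counting error. With equal sums of reads that second ratio was 0.969, on the other side of 1.

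The transcripts of HSPA1A and HSPA1B are so alike that their single values are uncertain. Of the 100-base fragments of HSPA1A transcripts, 67.3% also occurred in HSPA1B, and how the authors assigned such reads could not be learned from the labels or headers. Summed, HSPA1A and HSPA1B had 19.1 FPKM in shControl, 20.8 in shUSP16-1 and 19.1 in shUSP16-2, which is 1.08 and 0.996 times shControl. The shControl sum thus lay between the sums of the libraries labelled shUSP16. HSPA8 shares 0% of its 100-base fragments with other genes, so the split between HSPA8 and the pair does not rest on shared fragments of that length. Read length could not be learned from the labels or headers, and 10.6% of the 50-base fragments of HSPA8 are shared. The ratio of HSPA8 to the summed pair, which needs no scaling between libraries, was 8.33 (7.91 to 8.77) in shControl, 12.7 (12.1 to 13.4) in shUSP16-1 and 15.9 (15.1 to 16.7) in shUSP16-2. The 3 intervals do not overlap. If reads shared by HSPA1A and HSPA1B were left out in counting, their sum would miss them too, so the size of this ratio is uncertain.

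**Figure D3:**
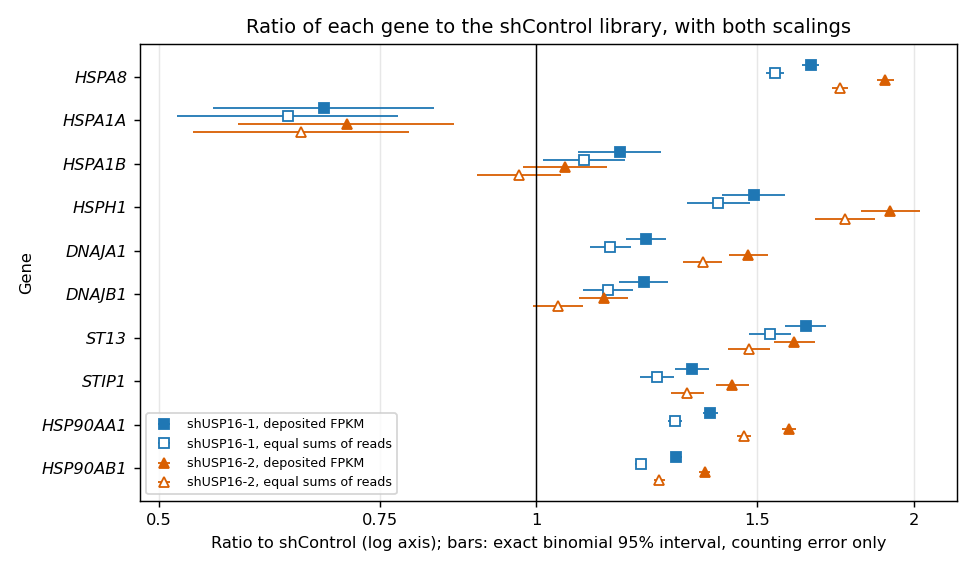
Ratio of each of the 10 genes to shControl (log axis) in shUSP16-1 (squares) and shUSP16-2 (triangles), with deposited FPKM (filled) and with equal sums of reads (open); bars are exact binomial 95% intervals of counting error. HSPA1A lies left of 1 and HSPA1B between 0.969 and 1.17, whereas HSPA8 lies between 1.55 and 1.90.

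HSPH1 (ENSG00000120694, chromosome 13, 31134974 to 31162388, minus strand), the HSP110 exchange factor that works with HSP70 in dissolving aggregates, was at 7.37 FPKM in shControl, 11.0 in shUSP16-1 and 14.1 in shUSP16-2. Averaged over shUSP16 it was 12.6 ± 2.22 (SD, n = 2), and the ratios were 1.49 (1.41 to 1.58) and 1.92 (1.81 to 2.02). In shUSP16-2 this was the highest ratio of the 10 genes, next to that of HSPA8. The libraries labelled shUSP16 differed from each other by 1.29 (1.22 to 1.35), the widest gap between them among the 10. HSPA8 stood at 21.6 times HSPH1 in shControl, 24.0 times in shUSP16-1 and 21.4 times in shUSP16-2, so that ratio in shControl lay within the range of the other libraries.

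The J-domain genes differed from each other. DNAJA1 (ENSG00000086061, chromosome 9, 33025211 to 33039907, plus strand), which delivers unfolded clients to HSPA8, was at 58.4 FPKM in shControl, 71.5 in shUSP16-1 and 86.2 in shUSP16-2. Its ratios were 1.22 (1.18 to 1.27) and 1.48 (1.42 to 1.53), both above 1 and apart from each other. DNAJB1 (ENSG00000132002, chromosome 19, 14514770 to 14529770, minus strand), the heat-inducible J-domain protein also called HSP40, was at 29.8 FPKM in shControl, 36.3 in shUSP16-1 and 33.7 in shUSP16-2. Its ratios were 1.22 (1.16 to 1.27) and 1.13 (1.08 to 1.18), and with equal sums of reads the second was 1.04 (0.994 to 1.09), not apart from 1. The ratio of DNAJA1 to DNAJB1 was 1.96 in shControl, 1.97 in shUSP16-1 and 2.56 in shUSP16-2, so only the library labelled shUSP16-2 stood apart. HSPA8 over DNAJB1 went from 5.35 (5.16 to 5.54) in shControl to 7.27 (7.04 to 7.51) and 8.98 (8.68 to 9.28). DNAJB1 overlaps TECR on the opposite strand, listed at 30.3, 38.1 and 36.8 FPKM, and the strand setting could not be learned from the labels or headers, so reads of the overlap cannot be told apart.

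Both adapters were higher than in shControl, ST13 more than STIP1. ST13 (ENSG00000100380, chromosome 22, 40824535 to 40857022, minus strand) measured 33.1 FPKM in shControl, 54.3 in shUSP16-1 and 53.2 in shUSP16-2, or 53.7 ± 0.777 (SD, n = 2). Its ratios were 1.64 (1.58 to 1.70) and 1.61 (1.55 to 1.67), and the libraries labelled shUSP16 did not differ beyond counting error (ratio 0.980, 0.947 to 1.01). ST13 has many processed copies, and 13.6% of its 100-base fragments occur in 10 other genes, and 29.9% of its 50-base fragments are shared. STIP1 (ENSG00000168439, chromosome 11, 64185272 to 64204543, plus strand) measured 48.1 FPKM in shControl, 64.0 in shUSP16-1 and 68.9 in shUSP16-2, with ratios of 1.33 (1.29 to 1.37) and 1.43 (1.39 to 1.48). STIP1 over ST13 was below its shControl value of 1.45 (1.40 to 1.51) in both, at 1.18 (1.14 to 1.22) and 1.30 (1.26 to 1.34).

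The HSP90 genes were the most abundant of the 10 and both were higher than in shControl. HSP90AB1 (ENSG00000096384, chromosome 6, 44246166 to 44253888, plus strand), the constitutive form, was at 671 FPKM in shControl, 867 in shUSP16-1 and 914 in shUSP16-2. Its ratios were 1.29 (1.28 to 1.31) and 1.36 (1.35 to 1.38). HSP90AA1 (ENSG00000080824, chromosome 14, 102080738 to 102139699, minus strand), the stress-inducible form, was at 228 FPKM in shControl, 314 in shUSP16-1 and 363 in shUSP16-2. Its ratios were 1.38 (1.36 to 1.40) and 1.59 (1.57 to 1.61), larger than those of HSP90AB1 in the same library. HSP90AB1 over HSP90AA1 was therefore 2.94 (2.90 to 2.98) in shControl, 2.76 (2.73 to 2.79) in shUSP16-1 and 2.52 (2.49 to 2.55) in shUSP16-2. Here the inducible form had the larger ratio, the reverse of HSPA8 against HSPA1A and HSPA1B. Few fragments of 100 bases are shared with other genes, 1.77% for HSP90AA1 and 1.38% for HSP90AB1, none of them between the HSP90 genes. Of 50-base fragments 14.9% and 16.6% are shared. HSP90AA1 overlaps WDR20 on the opposite strand, listed at 3.98, 3.85 and 3.84 FPKM.

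Summed by family, HSP70 (HSPA8, HSPA1A and HSPA1B) had 179 FPKM in shControl, 285 in shUSP16-1 and 322 in shUSP16-2, and HSP90 (HSP90AA1 and HSP90AB1) had 899, 1181 and 1277. The log2 ratio of the shUSP16 mean to shControl was 0.76 for HSP70 and 0.45 for HSP90. HSP90 over HSP70 was 5.03 (4.96 to 5.10) in shControl, 4.15 (4.10 to 4.20) in shUSP16-1 and 3.97 (3.93 to 4.01) in shUSP16-2. Both families were higher in both libraries labelled shUSP16, HSP70 by more. Adding 18 genes that resemble the HSP70 genes (copies of HSPA8 and the family gene HSPA1L) and 9 copies of the HSP90 genes moved these log2 ratios to 0.75 and 0.45. The added genes held at most 0.456% of the reads of the genes they resemble.

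**Figure D4:**
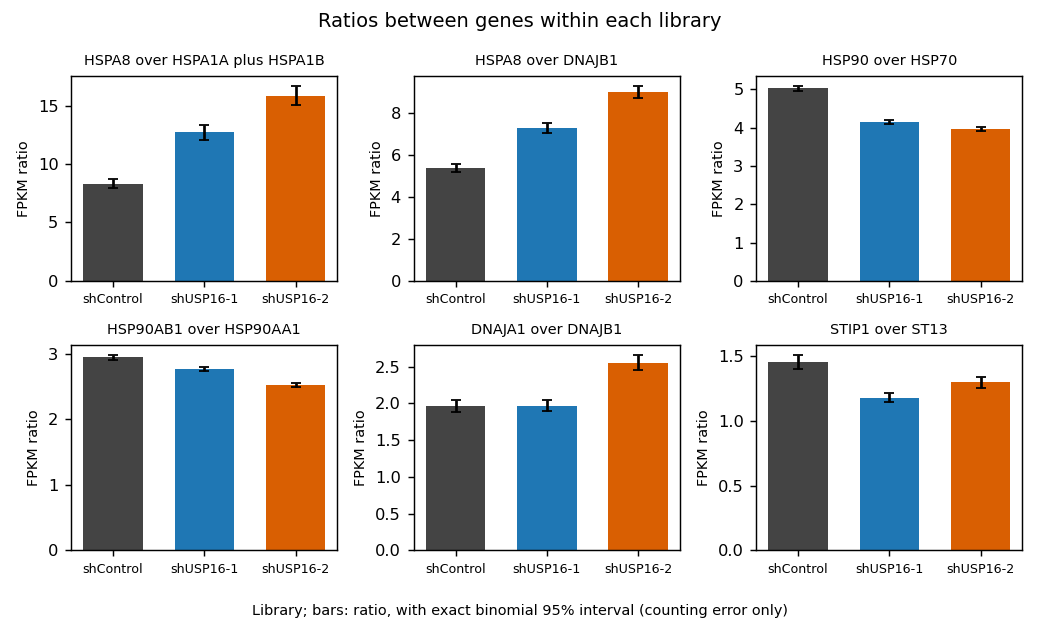
FPKM ratios between genes within each library, with exact binomial 95% intervals of counting error. HSPA8 over the summed HSPA1A and HSPA1B goes from 8.33 in shControl to 12.7 and 15.9, whereas HSP90 over HSP70 goes from 5.03 to 4.15 and 3.97.

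In FPKM, which is per length, the order of levels in shControl was HSP90AB1, HSP90AA1, HSPA8, DNAJA1, STIP1, ST13, DNAJB1, HSPA1B, HSPH1 and HSPA1A, and it was the same in the other libraries. Over the 3 libraries the ranges of 4 neighbouring pairs overlapped: HSP90AA1 with HSPA8, DNAJA1 with STIP1, STIP1 with ST13, and ST13 with DNAJB1. Levels depend on the gene length deposited with each gene, such as 8390 bases for HSPH1. Those of HSPA1A and HSPA1B also depend on how reads shared between them were counted. The largest gap lay between HSP90AB1, at 671 to 914 FPKM, and HSPA1A, at 2.14 to 3.17 FPKM.

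The libraries labelled shUSP16 were not equally far from shControl, and which was further depended on the gene. Of the 10 genes, 7 were higher in shUSP16-2 than in shUSP16-1, as were 52.2% of all genes tested. In 6 of the 10 (HSPA8, HSPH1, DNAJA1, STIP1, HSP90AA1 and HSP90AB1) the order was shControl, shUSP16-1, shUSP16-2, which 26.8% of all genes tested had. Of all tested genes above shControl in both, as 9 of the 10 were, 59.7% had that order. In the other 4 (ST13, DNAJB1, HSPA1B and HSPA1A) the difference from shControl was larger in shUSP16-1. For ST13 and HSPA1A, though, the libraries labelled shUSP16 did not differ beyond counting error. The ratio of shUSP16-2 to shUSP16-1 was 0.980 (0.947 to 1.01) for ST13 and 1.04 (0.836 to 1.30) for HSPA1A.

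By the distance between pairs of log2(FPKM + 1) differences, over 3 libraries and 7042 protein-coding genes averaging 5 FPKM or more, the genes most like HSPA8 were MRPL1, DCTPP1, UNG, EDNRA and CDH6. MRPL1 had 9.96, 16.9 and 18.6 FPKM in shControl, shUSP16-1 and shUSP16-2, and lay at a distance of 0.084. HSPA1A averaged under 5 FPKM and was not ranked. In this order HSPH1 ranked 22, ST13 32, HSP90AA1 105, STIP1 285, DNAJA1 417, HSP90AB1 486, DNAJB1 2182 and HSPA1B 3321. All of them share the same control library, and 3 libraries allow few patterns.

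Around these 10 genes, 74 other genes of the chaperone network were listed and 62 passed the filter. The median difference of the 62 in log2(FPKM + 1) was 0.22. With deposited FPKM, as for every such count below, 47 of them were above shControl in both libraries labelled shUSP16 and 7 below in both. That compares with 44.9% above and 32.4% below of all genes tested. Of the network genes averaging 10 FPKM or more, 32 of 37 were above in both, where the share of all genes at that level was 65.4%. limma with Benjamini-Hochberg adjustment over all genes called 0 of the 62, with 15 at an unadjusted p under 0.05, and it called 0% of all genes tested, of which 2008 had an unadjusted p under 0.05. limma restricted to protein-coding genes called 0 of the 62 as well (22 at an unadjusted p under 0.05), and 0.434% of its genes. limma voom on recovered reads called 4, where it called 2.51% of all genes (1.47% as higher): TOMM70, HSPD1, FKBP5 and NUDC, all higher. Scaled by the sums of reads instead, it called TOMM70 and HSPD1, where it called 4.02% of all genes (1.00% as higher).

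Among 5 tested HSP70 family genes outside the members, 4 were above shControl in both and 0 below in both, and limma and voom called 0. HSPA9, the mitochondrial HSP70, was at 62.8 FPKM in shControl against a mean of 86.9 ± 6.01 (SD, n = 2) for shUSP16, and HSPA5, the HSP70 of the endoplasmic reticulum, at 154 and 205 ± 38.1 (SD, n = 2). HSPA13 had a log2 difference of 0.42 and HSPA14 of 0.33. HSPA6, which is strictly induced by heat, was under the filter at 0.764, 0.169 and 0.299 FPKM in shControl, shUSP16-1 and shUSP16-2. These HSPA6 values rest on 59, 12 and 22 reads. With deposited FPKM the HSP90 paralogs of other compartments were above shControl in both libraries. TRAP1 of mitochondria had a log2 difference of 0.39 and HSP90B1 of the endoplasmic reticulum of 0.29, and neither was called. HSP90B1 stood at 1.06 times shControl in shUSP16-1 and 1.41 times in shUSP16-2. With equal sums of reads HSP90B1 was not above shControl in shUSP16-1.

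Of 18 tested HSP90 co-chaperones, 15 were above shControl in both and 1 below in both, with a median of 0.24. TOMM70, a mitochondrial import receptor that docks HSP70 and HSP90, was at 10.6 FPKM in shControl against a mean of 16.4 ± 0.883 (SD, n = 2) for shUSP16 (limma adjusted p = 0.280; voom adjusted p = 0.024). NUDC, which assists HSP90 with selected clients, was at 28.0 and 40.6 ± 3.44 (SD, n = 2) (limma adjusted p = 0.280; voom adjusted p = 0.045). FKBP5, a steroid receptor co-chaperone whose gene is also a target of the glucocorticoid receptor, was at 7.11 and 10.3 ± 0.420 (SD, n = 2) (limma adjusted p = 0.280; voom adjusted p = 0.042, or 0.075 with sums of reads).

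The exchange factors and cofactors of HSP70 were above shControl in both libraries for 7 of 9 and below in both for 1, with a median of 0.17 and 0 called by limma or voom. HSPA4, an HSP110 relative of HSPH1, had a log2 difference of 0.46, HSPBP1 of 0.25 and HSPA4L of 0.22. BAG3, an exchange factor strongly induced by stress, was the one below, at 9.80 FPKM in shControl against a mean of 8.65 ± 0.199 (SD, n = 2) for shUSP16. Of 15 tested J-domain genes, 10 were above in both and 3 below in both, with a median of 0.18 and 0 called. DNAJC7, which binds both HSP70 and HSP90, had a log2 difference of 0.43, DNAJC8 of 0.33 and DNAJB2 of -0.35.

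Of the 3 heat shock factor genes, HSF1 was above shControl in both libraries and HSF2 and HSF4 were below in both, and limma and voom called 0 of them. HSF1, the main activator of the heat shock response, was at 10.8 FPKM in shControl against a mean of 12.7 ± 0.0788 (SD, n = 2) for shUSP16, HSF2 at 11.4 and 10.2 ± 0.354 (SD, n = 2), and HSF4 had a log2 difference of -0.31. HSBP1, which binds HSF1 and was listed with them, was above in both with a log2 difference of 0.22. Of 15 tested heat shock responsive genes, some of which are also in the lists above, 12 were above in both and 2 below in both. HSPD1, the mitochondrial HSP60, was at 219 FPKM in shControl against a mean of 316 ± 12.9 (SD, n = 2) for shUSP16 (limma adjusted p = 0.272; voom adjusted p = 0.025), and its partner HSPE1 at 23.2 and 29.8 ± 3.14 (SD, n = 2). Only 3 of 9 small heat shock protein genes passed the filter. HSPB8, which works with BAG3, had a log2 difference of 0.58, while HSPB1 was at 242 FPKM in shControl, 289 in shUSP16-1 and 215 in shUSP16-2, so shControl lay between the others.

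**Figure D5:**
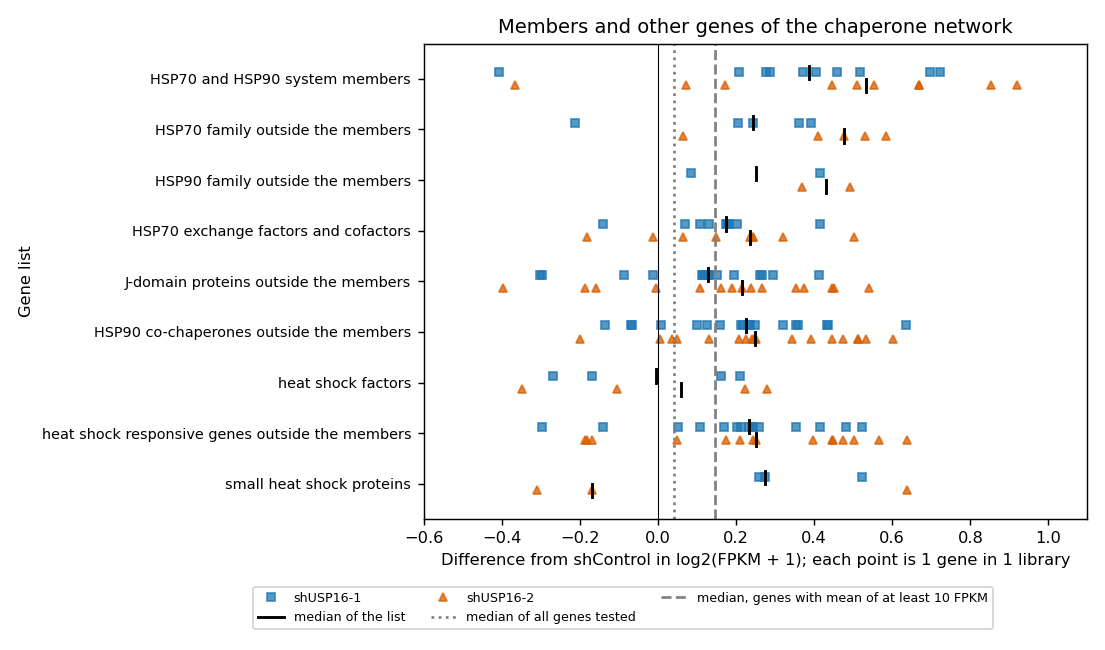
Difference from shControl in log2(FPKM + 1) for the 10 genes and for the tested genes of 8 chaperone network lists, 1 point per gene and library (squares shUSP16-1, triangles shUSP16-2), with list medians as black ticks and the medians of all genes tested (dotted, 0.042) and of genes averaging 10 FPKM or more (dashed, 0.15). The points furthest right are HSPA8 and HSPH1 in shUSP16-2, and the leftmost square is HSPA1A.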

How the data were processed

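The authors deposited FPKM values for 58735 genes with 1 column per library and gene lengths, per the file headers. The aligner, counter, strand setting and read length could not be learned from the labels or headers. The submitters' processing notes name the mouse builds GRCm38 and mm10; yet the 58735 gene IDs and coordinates equal those of human GENCODE release 29 on GRCh38. FPKM times length was a whole multiple of 1 step per library for 100% of values above 0 (tolerance 0.01 reads), which gave reads; the authors' FPKM imply totals that were 1.08, 1.01 and 0.994 times their sums in shControl, shUSP16-1 and shUSP16-2.

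limma 3.58.1 in R 4.3.3 with a variance trend tested log2(FPKM + 1) over genes averaging 1 FPKM or more, adjusted by Benjamini-Hochberg and called at 0.05. Only the 2 libraries labelled shUSP16 gave its spread (1 residual degree of freedom), with shControl taken to vary equally. limma also borrows variance across genes. The prior degrees of freedom were 4.05 in the main fit and 9.81 for protein-coding genes. For voom they were 18.7 with the authors' totals and 27.1 with sums of reads. The p-values thus rest mostly on library spread shared over genes, which may be technical. Scripts were tested on simulated data. For limma and voom these held large known changes, and only the sign of the differences had to be right. That check does not bear on calls for smaller differences. The 10 genes, the lists and the rules were chosen with earlier results of these data known. Named genes were the 10, USP16, up to 3 per list with the largest difference of the weaker library, a fixed set (HSF1, HSF2, BAG3, HSPB1, HSPD1, HSPE1, HSPA5, HSPA9, HSP90B1, TRAP1, FKBP5) and the 5 nearest to HSPA8; HSPA6 was added after its values were seen. For a symbol with several rows, the row with the highest mean was used. Intervals are exact binomial 95% intervals. Scripts ran in Python 3.11.15 (scipy 1.17.1).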

Additional observations from a re-analysis of the deposited data

How the results depend on the processing

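No paired analysis was possible because there was 1 shControl library for the 2 libraries labelled shUSP16. Every difference is from 1 control library, and leaving it out leaves no contrast. With equal sums of reads the median difference of the 10 genes was 0.33 and the log2 ratio of summed HSP90 was 0.34. The number of the 10 genes at least 1.5 times shControl in both libraries was 1 with equal sums of reads, 2 to 4 when either library labelled shUSP16 was left out, and 6 and 0 with the rule set at 25% and 100% above shControl. The difference averaged over both libraries changed its sign for 0 of the 10 genes under the pseudocount of 0.1, either scaling or leaving out a library. HSPA1B came to 0.038 with equal sums of reads and was then below shControl in shUSP16-2, so 8 of the 10 were above in both. limma called 13 genes when only those averaging 5 FPKM or more were tested, 48 among protein-coding genes, and voom 348 with the authors' totals and 557 with sums of reads; of the chaperone network genes voom called 4 and 2. The other limma settings called 0, with 1904 to 4516 genes at an unadjusted p under 0.05. With 1 shUSP16 library left out limma has no residual degrees of freedom, so those settings gave values only.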
